A study of Mus musculus with 12 samples.

Results

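In mouse small-intestinal organoids, 13 transcript rows met a rule on RNA and ribosome footprints that compared Eif4g2 knockout with wild type. These rows had a log2 RNA-seq change of -0.4 to 0.4 and footprints at most 50% as frequent in the knockout. They were 13 of 45864 rows with distinct counts in the series and fell into 7 loci of 40818, where a locus is a set of neighbouring rows whose counts match over all libraries. RNA-seq and ribosome profiling were run on organoids of 3 genotypes, Eif4g2+/+ (WT), Eif4g2+/- (Het) and Eif4g2-/- (KO), with 2 numbered organoid samples per genotype. The RNA-seq libraries are labelled RNA_6026_WT and RNA_6028_WT, RNA_6136_hetero and RNA_6139_hetero, and RNA_6070_homo and RNA_6072_homo, and the footprint libraries carry Ribo in place of RNA, 12 libraries in all. Values of a genotype are given in that order. Every genotype, WT included, was cultured for 3 days in basal medium supplemented with R-spondin-1, Noggin and epithelial growth factor, and received 0.5 µM 4-OHT, the tamoxifen metabolite used to switch on inducible recombinases, for 24 hours. How the allele was made, what drives any recombinase, the age of the animals and whether numbers mark separate animals are not given in the sources used here, so p-values measure the spread between these libraries.

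Ribosome profiling reads the stretches of mRNA that ribosomes shield from RNase, so its count on a coding region follows how many ribosomes sit there. Divided by the RNA-seq level of the same region it gives the ribosome density, often called translational efficiency, which falls when an mRNA is engaged by fewer ribosomes. eIF4G2, also known as DAP5, resembles the scaffold eIF4G1 but lacks the site that binds the cap-binding protein eIF4E, and it joins eIF4A and eIF3 in forms of initiation that do not follow the standard cap-dependent route. The small intestinal epithelium renews from stem cells at the crypt base, and organoids keep that cycle in culture. The title of the series places its interest in the initiation of histone modifiers.

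The members were chosen on measured values. The tables give, for each transcript, a whole number taken here as the length in codons of the counted part of the coding region, whose unit the tables do not state, and a read count. Rows of 91 codons or more and fewer than 1000 with equal counts in all libraries were merged. Counts of the 2 libraries of a group were pooled and expressed as CPM, counts per 1000000 of the group's counts over all rows. A row needed at least 30 pooled RNA-seq counts in WT and in KO and at least 200 pooled footprint counts in WT. Members had a log2 KO/WT change from -0.4 to 0.4 in RNA-seq and at or below -1 in footprints. The row with the deepest fall among all that met these limits was left out by the rule, although a neighbouring isoform that shares its reads remained a member. Of the 2499 rows that met the length range and the count floors, 1280 lay within the RNA window, and 14 of these (1.09%), the left-out row among them, reached the footprint threshold. The membership depended on single libraries and on scaling: 3 rows met the rule without RNA_6026_WT and Ribo_6026_WT, 5 without RNA_6028_WT and Ribo_6028_WT, and 8 with TMM-scaled library sizes.

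The count tables list transcript IDs without gene names, and no table used here links these IDs to symbols. Gene names, functions, sequences, tissue markers and the level of Eif4g2 itself were therefore not analysed here, and no name was inferred from an ID. The loci are called A to G in the order of the tables. The row with the most footprints stands for its locus. Locus A held 3 members of 920, 925 and 937 codons and locus B 1 member of 859, ENSMUST00000161051.8, the isoform beside the left-out row. Locus C was a single row of 977 codons. Locus D held 2 members of 831 and 766, led by ENSMUST00000052915.14, which had the most WT RNA-seq counts of the members. Locus E held 4 members of 781 to 836 codons and was represented by the longest. Loci F and G were single rows of 340 and 607. Members of a locus share reads and are not independent, so values below are given per locus.

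The RNA-seq tables held 387649 to 1077663 counts per library and those of footprints 5551591 to 25899680. The RNA-seq totals did not overlap between genotypes, with 387649 and 447153 in WT, 554845 and 776173 in Het, against 895431 and 1077663 in KO, so depth and genotype cannot be told apart in that assay. Footprint totals were 15566995 and 5551591 in WT, 11058505 and 15307550 in Het, against 25899680 and 18246881 in KO. Both KO totals lay above all others, so depth and the KO genotype cannot be told apart in footprints either.

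The footprint levels of the members ranged widely. In bulk organoids, fewer cells of a type and less RNA per cell cannot be told apart. Locus D had the most, with 80.7 and 80.0 CPM in the WT libraries, 62.6 and 61.5 in Het, against 38.8 and 36.2 in KO. The 3 genotypes did not overlap, and the pooled KO level was 46.9% of WT. Locus F, the shortest member, had 49.9 and 47.9 CPM in WT, 40.2 and 38.5 in Het, against 22.1 and 19.7 in KO. Here too each genotype lay below the one before it, and KO held 42.8% of the WT level.

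Locus B fell furthest. ENSMUST00000161051.8 had 64.9 and 63.4 CPM of footprints in WT, 45.1 and 45.3 in Het, against 4.52 and 4.00 in KO. KO footprints were 6.67% of WT, a pooled log2 change of -3.91, against -1.0 to -1.22 in the representatives of the other 6 loci. Both KO values rest on 117 and 73 reads and the WT values on 1011 and 352, so counting error is small beside the fall. This member shows the fall of the left-out row, whose pooled change was -3.93, and adds no further locus.

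Loci A, G, C and E had fewer footprints. Locus A had 20.2 and 23.2 CPM in WT, 17.2 and 19.1 in Het, against 9.73 and 8.93 in KO. Locus G had 11.8 and 15.7 in WT, 12.03 and 12.7 in Het, against 6.10 and 6.63 in KO. In A all Het values lay below all WT values, whereas in G the Het values fell between the 2 WT values.

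Locus C had 11.0 and 9.19 CPM in WT, 9.68 and 9.73 in Het, against 5.41 and 5.04 in KO. Locus E had 10.2 and 10.1 in WT, 9.86 and 10.1 in Het, against 4.94 and 3.95 in KO. In both loci Het overlapped WT and KO stood apart. Pooled KO levels were 44.7%, 49.4%, 49.992% and 44.5% of WT in A, G, C and E.

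Both KO libraries lay below both WT libraries in footprints in all 13 members, a separation that 30.3% of the 33221 rows tested in the assay also showed. The rule selected on this contrast, so nothing is read from that count.

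**Figure D1:**
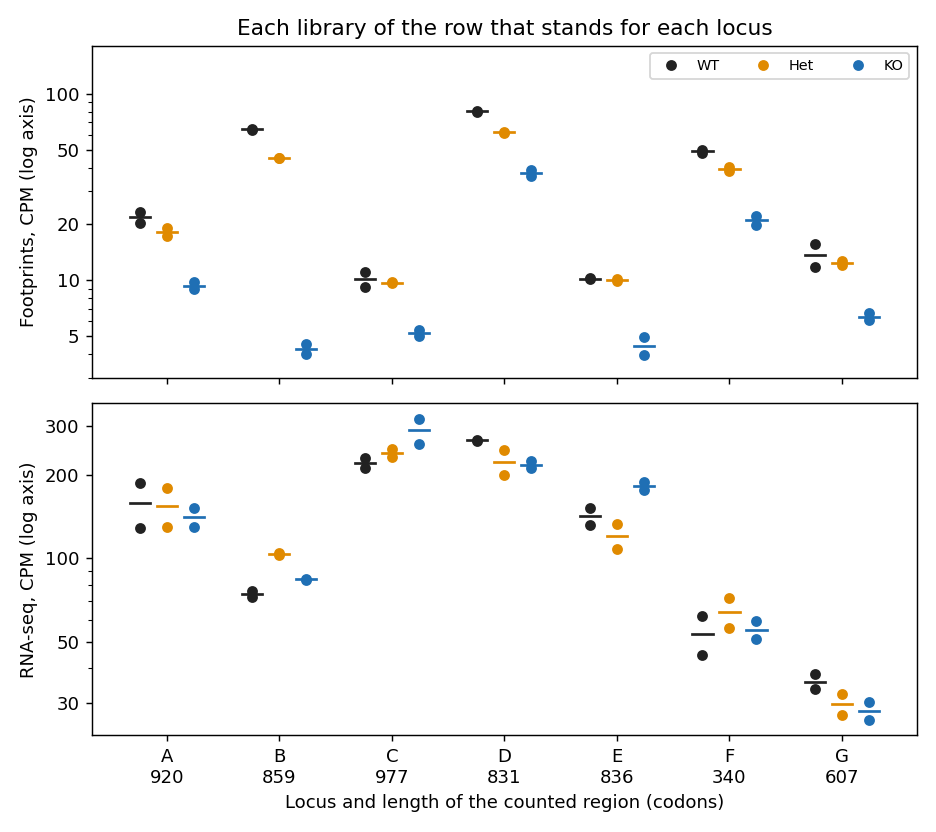
Footprint level (top) and RNA-seq level (bottom) in CPM, on log axes, of the row that stands for each locus. Points are single libraries coloured by genotype, bars their mean, and the number under each letter is the length in codons. KO footprints lie below WT and Het in every locus, with the widest gap in B (4.00 and 4.52 CPM against 63.4 and 64.9), while pooled KO RNA-seq levels are 77.6% to 129.7% of WT.

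Set per 100 codons so that loci can be compared, mean WT footprints were 14.4 CPM ± 0.42 in F, 9.67 ± 0.060 in D, 7.47 ± 0.13 in B, 2.36 ± 0.23 in A, 2.26 ± 0.46 in G, 1.21 ± 0.011 in E and 1.03 ± 0.13 in C (SD, n = 2). The neighbours A and G differed by less than their spread, while F, D and B were separated by more than theirs. The order by RNA was different. Mean WT RNA-seq levels per 100 codons were 32.1 CPM ± 0.23 in D, 22.6 ± 1.4 in C, 17.2 ± 4.5 in A, 17.0 ± 1.7 in E, 15.7 ± 3.6 in F, 8.63 ± 0.31 in B and 5.89 ± 0.52 in G (SD, n = 2). A, E and F were within their spread of each other. In KO the footprint order put B last, at 0.50 CPM per 100 codons ± 0.043, just under E at 0.53 ± 0.084 and C at 0.53 ± 0.026 (SD, n = 2), 3 levels that did not differ beyond their spread.

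RNA-seq levels were steady only in the sense of the rule. TMM scaling raised the median log2 KO/WT change in RNA-seq by 0.090 over the rows that met the floors. Loci C and E, at 0.37 and 0.36 without it, then lay above the limit of 0.4. With that scaling 8 members in 5 groups remained. Locus A had 188 and 129 CPM in WT, 179 and 130 in Het, against 152 and 130 in KO, with all genotypes overlapping. Locus F had 44.7 and 61.9 in WT, 72.1 and 55.9 in Het, against 59.2 and 51.0 in KO, also overlapping. In the other 5 loci the KO and WT libraries did not overlap in RNA-seq.

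KO lay above WT in loci B, C and E. Locus C had 230 and 212 CPM of RNA in WT, 248.7 and 232 in Het, against 321 and 260 in KO. Locus E had 152 and 132 in WT, 133 and 108 in Het, against 189 and 177 in KO. Locus B had 76.0 and 72.2 in WT, 104 and 103 in Het, against 83.8 and 84.4 in KO, so that Het was highest there.

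KO lay below WT in loci D and G. Locus D had 268 and 266 CPM of RNA in WT, 199.7 and 247 in Het, against 224 and 213 in KO. Locus G had 38.0 and 33.5 in WT, 32.2 and 27.0 in Het, against 30.2 and 26.0 in KO. Of all 13 members, 6 had both KO libraries above both WT libraries in RNA-seq and 3 had both below, where 31.9% and 26.8% of the 12356 rows tested did. These counts come from the contrast that the rule used and are a description.

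The depth of RNA-seq limits how steady any of these RNAs can be called. Pooled WT counts were 223 in D, 185 in C, 134 in A, 119 in E, 62 in B, 44 in F and 30 in G. The exact 95% interval of the pooled log2 KO/WT change, from a binomial split of the reads and covering counting error only, was -0.53 to -0.05 in D, 0.13 to 0.62 in C, -0.50 to 0.11 in A and 0.05 to 0.67 in E. It was -0.25 to 0.62 in B, -0.46 to 0.59 in F and -1.03 to 0.33 in G. All 7 intervals reached outside the window of -0.4 to 0.4, and those of C, D and E did not include 0. Footprint intervals ran from -1.19 to -0.995 in D and from -1.45 to -0.88 in E, and in 5 of 7 loci they reached above the threshold of -1.

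The members just inside the footprint threshold were the rows of C, G and D, at -1.0, -1.02 and -1.09. The 3 closest rows outside it, at steady RNA, were at -0.97, -0.94 and -0.93, with 715, 735 and 445 codons. On the RNA side, the outermost member was C at 0.37, and the nearest row with a footprint fall of that size outside the window had an RNA change of 0.42 and a footprint change of -1.04.

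**Figure D2:**
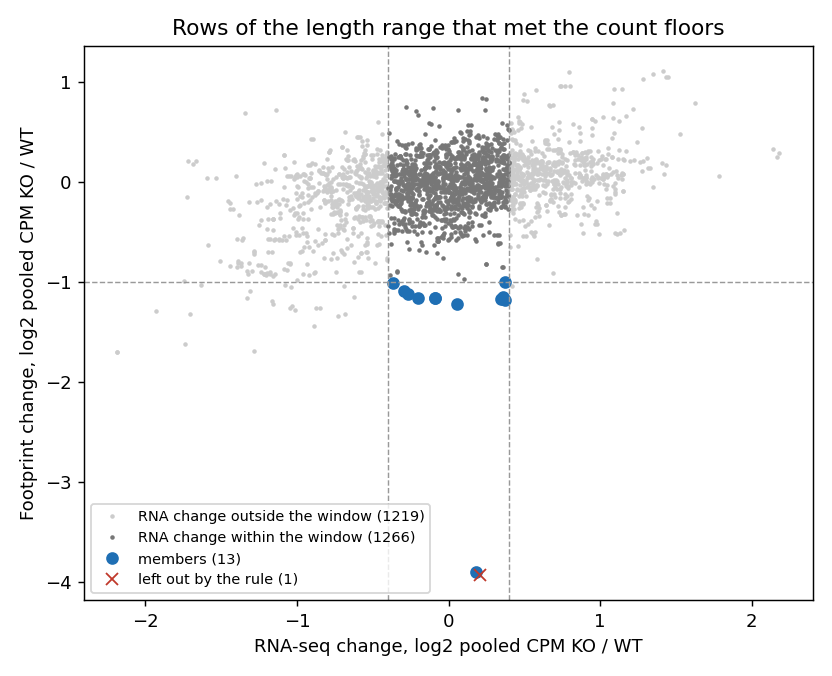
Pooled log2 KO/WT change in RNA-seq (x axis) and in footprints (y axis) of the 2499 rows that met the length range and the count floors. Dashed lines are the limits of the rule. The members (blue) lie between -1.0 and -1.22 in footprints apart from ENSMUST00000161051.8 at -3.91, beside the left-out row (red cross).

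Among the rows that met the floors, falls of this size at steady RNA were rare, and rises of the same size were not seen. Among the 1280 rows within the RNA window, which fell into 792 transcript groups, the footprint change had a median of -0.01 and ran from -0.51 to 0.37 between its 5th and 95th percentiles. A log2 change at or below -0.6 was found in 36 rows (22 groups) and one at or above 0.6 in 8 rows (8 groups). At or beyond 0.8 the numbers were 23 rows (12 groups) lower and 2 rows (2 groups) higher. At or beyond 1 they were 14 rows (7 groups) lower and 0 higher. The floor of 200 footprints applied to WT and not to KO. Rows below it in WT could not enter however high they were in KO, whereas rows above it could fall to any KO level. The numbers of falls and rises are therefore not on equal terms. These are counts over rows and were not tested.

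Long coding regions made up most of the members. Their median length was 831 codons, against 547 over the rows within the RNA window. A length of at least 750 codons, a limit set after the values were seen, was found in 5 of 7 loci (71.4%) and in 197 of the 792 groups (24.9%). Of the rows within the RNA window, 12 of 311 with 750 codons or more had a footprint change at or below -1, the left-out row included. It was 1 of 399 from 500 to below 750 codons, 1 of 340 from 250 to below 500, and 0 of 230 below 250. Rows of a locus share reads, so these shares are no independent counts.

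**Figure D3:**
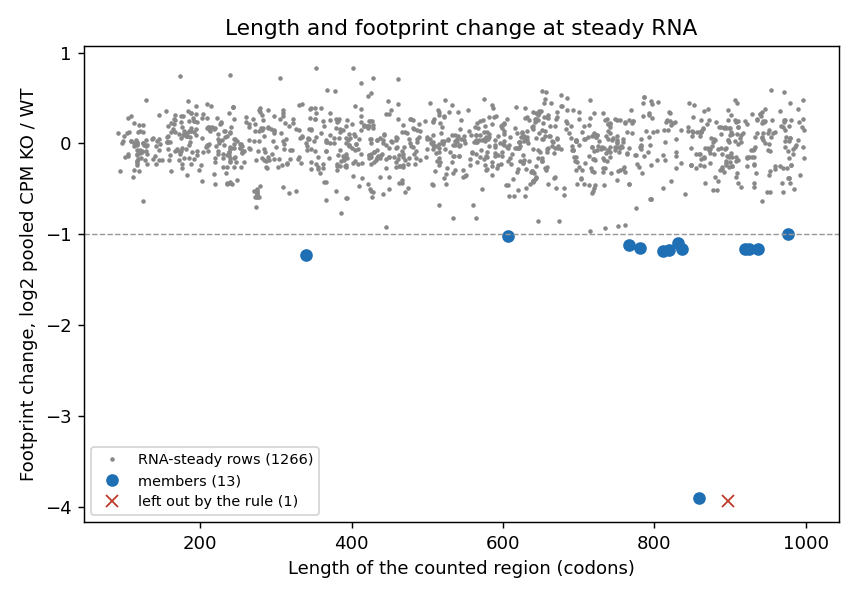
Pooled footprint log2 KO/WT change against the length of the counted region in codons for the rows within the RNA window. Of the 13 members (blue), 11 have 766 to 977 codons, and the other two have 340 and 607.

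Other isoform rows of the same loci were outside the members by length or depth. Locus A had a further row, of 1114 codons, with a footprint change of -1.18 and an RNA change of -0.06. Locus E had 8 rows with counts: the 4 members, a copy equal to one of them, and 3 shorter rows of 423, 468 and 681 codons below a count floor, with footprint changes of -1.25, -1.27 and -1.16. These isoforms share reads, and a locus joins only rows whose counts match over all libraries. The like size of the fall within these 2 loci therefore follows from the grouping and is no result about isoforms.

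The ribosome density in WT was low for most members. Over the rows within the RNA window the pooled density, footprint CPM per RNA-seq CPM, in which length cancels, had a median of 0.486 in WT. Locus F was at 0.937 and B at 0.869, whereas G was at 0.356, D at 0.301, A at 0.131, E at 0.0714 and C at 0.0474. Only 7 of the 1280 rows had a lower WT density than C. In KO the densities were 0.386 in F, 0.227 in G, 0.173 in D, 0.0672 in A, 0.0512 in B, 0.0248 in E and 0.0183 in C, and C was the lowest of all 1280 rows. Low KO footprints within the RNA window were part of the rule, so the KO densities and the rank of C in KO are a description only. The floor of 200 footprints and 30 RNA counts bears on which densities could enter.

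The Het libraries took no part in choosing the members. The comparisons of Het share the WT or the KO libraries with the rule, which favours rows whose WT footprints were measured high and KO footprints low, so the changes are given side by side and not as independent support. Log2 changes and adjusted p-values are from edgeR's quasi-likelihood test over all rows, with Benjamini-Hochberg adjustment and a call at an adjusted p under 0.05. Members that passed the count filter were 13 of 13 in each assay.

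In Het vs WT, footprints fell in locus B by 0.50 on the log2 scale (SE 0.072, edgeR adjusted p 0.00108) and in the 831-codon row of locus D by 0.37 (SE 0.069, edgeR adjusted p 0.0128). The other row of D was called too, so 3 of 13 members were lower in Het, where 0.482% of 33221 rows were. The calls in D ended with DESeq2 (adjusted p 0.149 for ENSMUST00000052915.14) and without Ribo_6139_hetero (0.156), and for that row without Ribo_6136_hetero (0.0559). In locus F the change was -0.32 (SE 0.078, edgeR adjusted p 0.0635), which missed the threshold although both Het libraries lay below both WT libraries.

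The remaining loci showed smaller differences between Het and WT. Locus A was at -0.21 (edgeR adjusted p 0.468), C at -0.10 (0.853), G at -0.06 (0.927) and E at -0.02 (0.987). The changes in C, G and E were smaller than their standard errors of 0.13 to 0.14. All 13 changes were negative, with a median of -0.20, while the median over all rows tested was 0.00. These 13 rows share reads within 7 loci, and the rule favoured WT footprints measured high, so the shared sign is a description only. Without Ribo_6026_WT, without Ribo_6028_WT or without Ribo_6136_hetero, 12 of 13 were negative, and the median was -0.35 without Ribo_6026_WT and -0.12 without Ribo_6028_WT. Both Het libraries lay below both WT libraries in 9 of 13 members, against 20.6% of rows. By the row that stands for each locus these were 4 of 7 loci: A, B, D and F. The 9 also hold the 819- and 781-codon rows of E, whose representative overlapped WT. Pooled Het levels ran from 70.1% of WT in B and 76.9% in D to 98.4% in E. The called loci B and D had the most pooled WT footprint counts, 1363 and 1700. The loci that were not called had 1043 in F, 444 in A, 270 in G, 222 in C and 215 in E. The difference between loci was not tested.

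In KO vs Het, footprints fell in all 13 members (edgeR adjusted p from 3.08e-13 to 7.07e-05), where 13.3% of rows were called lower. The median change was -0.98. Locus B fell by 3.40 on the log2 scale (SE 0.094) and locus E by 1.16 (SE 0.14). Locus D fell by 0.73 (SE 0.068), the smallest change among the 7, and F fell by 0.91 (SE 0.079). Both KO libraries lay below both Het libraries in 13 of 13 members, against 30.2% of rows. DESeq2 called all 13 as well. The rule chose the members for low footprints in these same KO libraries, and members of a locus share reads. These counts are therefore a description and no independent support.

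**Figure D4:**
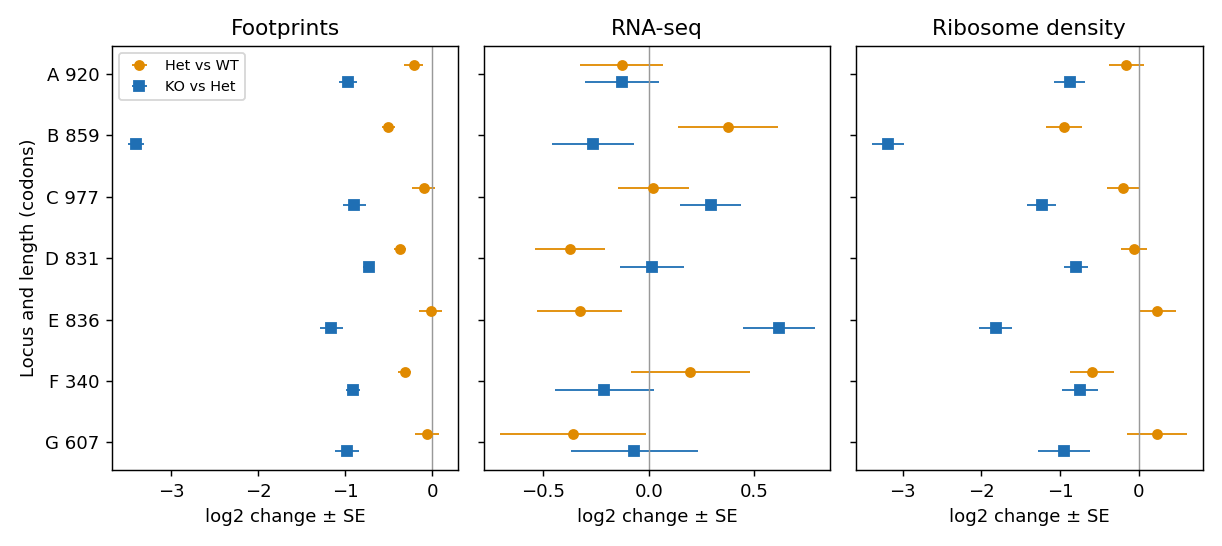
Log2 changes with standard errors from edgeR for the row that stands for each locus, in footprints, RNA-seq and ribosome density, for Het vs WT (orange circles) and KO vs Het (blue squares). Footprint falls in KO vs Het run from -0.73 in D to -3.40 in B, while in Het vs WT B (-0.50) and D (-0.37) passed the test and E (-0.02) lay at 0. The x axes of the 3 panels differ.

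In RNA-seq, locus E was called between KO and Het, and no member was called between Het and WT. In Het vs WT, edgeR called 0 of 13 members, with 1.63% of 12356 rows called lower and 0.753% higher, and 1 member had an unadjusted p under 0.05 by edgeR and 0 by DESeq2. The changes in the row for each locus ran from -0.37 in D (edgeR adjusted p 0.25) to 0.38 in B (0.448), with standard errors of 0.17 to 0.35. Both Het libraries lay below both WT libraries in 6 of 13 members (18.3% of rows) and above them in 2 (27.5%). By the row that stands for each locus, these were 2 and 2 of 7 loci. In KO vs Het, the 4 rows of locus E were called higher in KO (0.62, SE 0.17, edgeR adjusted p 0.0127 in the 836-codon row), where 3.88% of rows were, and 0 were called lower, where 3.27% were. Both KO libraries lay above both Het libraries in 5 of 13 members (22.5% of rows) and below them in 1 (27.6%). Counted by locus in the same way, these were 2 and 1 of 7 loci. DESeq2 called 0 of 13 there, and the 4 calls were lost without RNA_6070_homo or without RNA_6139_hetero. The other 9 members were not called. Counting intervals of the pooled Het vs WT change were 0.04 to 0.94 in B, -0.23 to 0.87 in F and -0.98 to 0.48 in G. For KO vs Het they were -0.64 to 0.03, -0.68 to 0.17 and -0.72 to 0.52. Shifts of the size of the window could thus go unseen in these loci. In Het vs WT the intervals of B and D did not include 0, although B and D were not called.

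Ribosome density combined both assays in 1 model with a genotype by assay interaction. In KO vs Het it was called lower in 11 of 13 members, where 1.69% of 30890 rows were called lower. Low KO footprints were part of the rule, so comparisons of the KO density are no independent support. The log2 change was -3.18 in B (SE 0.21, edgeR adjusted p 3.68e-17), -1.82 in E (SE 0.21, edgeR adjusted p 9.16e-09) and -1.23 in C (SE 0.19, edgeR adjusted p 1.33e-05). It was -0.88 in A (SE 0.20, edgeR adjusted p 0.00581) and -0.80 in D (SE 0.15, edgeR adjusted p 0.000618). In E the rise in RNA and the fall in footprints both added to it. Loci F (-0.74, SE 0.23, edgeR adjusted p 0.091) and G (-0.95, SE 0.33, edgeR adjusted p 0.164), which had the fewest RNA-seq counts, did not pass. The call for ENSMUST00000052915.14 was lost without the 2 libraries RNA_6136_hetero and Ribo_6136_hetero (-0.61, adjusted p 0.102).

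In Het vs WT the density was called in 0 of 13 members by edgeR, where 0.0615% of rows were called lower, and 2 members had an unadjusted p under 0.05. DESeq2 also called 0, with 1 member under that p, and gave no adjusted p for B. Locus B came closest, at -0.95 (SE 0.23, edgeR adjusted p 0.0893), followed by F at -0.59 (SE 0.28, edgeR adjusted p 0.558). Library by library, B had densities of 0.854 and 0.878 in WT, 0.432 and 0.441 in Het, against 0.0539 and 0.0474 in KO. F had 1.12 and 0.774 in WT, 0.558 and 0.69 in Het, against 0.374 and 0.387 in KO. The other loci lay from -0.19 in C to 0.23 in E and G. Both KO densities lay below both Het densities in 13 of 13 members, against 19.9% of rows. Both Het densities lay below both WT densities in 3 of 13 members, against 24% of rows. By the row that stands for each locus, the latter were 3 of 7 loci: B, C and F. In KO vs WT, the contrast of the rule, both KO densities lay below both WT densities in 13 of 13 members, against 28.1% of rows.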

How the data were processed

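The authors deposited 1 table of raw read counts per library, with transcript IDs and no header. Per the submitters' processing notes, which give no order or role, CASAVA 1.8, cutadapt 3.7, UMI-tools 1.1.2 and STAR 2.7.0a and the build mm39 were used; the counter, annotation and use of strand are not given in the sources used here. The other deposited column, a whole number from -9 to 35381 given in 66495 of 278268 rows, was taken as a length in codons. Neighbouring isoform rows repeat nearly the same counts, so a read appears to stand in several rows and totals may exceed the number of reads; near-identical or overlapping genes are uncertain.

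Rows with identical counts were merged over the whole table (45864 rows) and fitted with edgeR 4.0.16 in R 4.3.3: TMM scaling, filterByExpr, 6 libraries per assay or 12 for density. Alternatives used DESeq2 1.42.0, other filters and scalings, left-out libraries, a replicate block and transcript groups. Groups joined rows within 25 rows of each other with matching counts: at least 24 counts and a chi-square under 3.05 or an SD of the log2 ratio under 0.15, or identical counts from 6. The script was tested on simulated data. Members and lists were chosen with earlier results of these data known. Printed IDs followed a rule: the deepest footprint fall with separate libraries, and the most WT RNA-seq counts. The planned gene lists and marker checks were not run, since the tables hold no gene names.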

Additional observations from a re-analysis of the deposited data

How the results depend on the processing

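The number of members depended on the limits. It was 8 with TMM-scaled library sizes, 5 with an RNA window of 0.2, 22 with a footprint threshold of -0.8, 2 with -1.2 and, by construction, 7 with 1 row per transcript group. Without each WT or KO organoid it ranged from 3 (without RNA_6026_WT and Ribo_6026_WT, 2 of them among the 13) to 12, with 5 without RNA_6028_WT and Ribo_6028_WT; leaving a library out also lowers the counts that meet the floors. With floors still met by both libraries together, an alternative chosen after the data were seen, as was leaving out locus B, it was 10 to 12: 11 without RNA_6026_WT and Ribo_6026_WT and 10 without RNA_6072_homo and Ribo_6072_homo, of which 8 each were among the 13, and 12 in the other two cases, of which 11 and 12 were.

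Members called in footprints Het vs WT were 1 with DESeq2 and 1 to 3 without single libraries (1 without Ribo_6139_hetero); the median ran from -0.35 to -0.12. In KO vs Het 7 of 7 groups were called with 1 row per group, and without single libraries 13 to 13 members, median -1.02 to -0.94. In RNA-seq, Het vs WT gave 0 to 0 calls and a median of -0.37 to -0.19 without single libraries, and -0.11 with 1 row per group. KO vs Het gave 0 calls with DESeq2, 1 with 1 row per group and 0 to 4 without single libraries, median -0.016 to 0.13. Density Het vs WT gave 1 call (B, -0.96, adjusted p 0.0156) with at least 10 counts in every library, and without single libraries 0 to 0 and a median of -0.14 to 0.08. Density KO vs Het gave 5 of 7 groups, and 8 to 11 members without single libraries, median -1.22 to -0.82. Changes of ENSMUST00000052915.14 that were not called turned sign: in RNA-seq KO vs Het -0.0051 with 1 row per group, -0.016 without RNA_6070_homo and -0.16 to 0.17 without single libraries (-0.16 without RNA_6136_hetero), and in density Het vs WT -0.24 to 0.10 (0.10 without RNA_6139_hetero and Ribo_6139_hetero).

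The replicate block by organoid number gave 0 density calls among members for Het vs WT, and 11 when KO was compared with Het, as without it. The RNA-seq and footprint libraries of a number showed weakly related deviations (r of 0.0597 in WT, 0.166 in Het and 0.0462 in KO over the 1385 groups of 300 or more RNA-seq counts), so a pairing was not taken as shown. Without locus B, 12 members remained, of which 2 were called in footprints Het vs WT, 12 in KO vs Het and 10 in density KO vs Het.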
